A study of Mus musculus with 8 samples.

Results

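The genes described here mostly encode transcription factors, in a set named for the caudal ganglionic eminence (CGE). Their RNA was measured in the medial ganglionic eminence (MGE) of mouse embryos with and without Nkx2-1. The set of 8 genes was given by name, with no threshold on their values but with earlier results of these data known. It holds the COUP-TF genes Nr2f1, Nr2f2 and Nr2f6, the related receptor gene Nr2e1, the zinc finger genes Sp8 and Sp9, the homeobox gene Prox1, and the serotonin receptor gene Htr3a. Probes were assigned by matching the accession in the array files to RefSeq symbols. This gave a probe for 6 of the 8 genes, or 7 of 41174 probes, while Sp9 and Htr3a were not analysed here. The 6 measured genes stand among 17178 symbols with a probe.

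RNA came from micro-dissected MGE at embryonic day 13.5 (E13.5), from 4 WT and 4 Nkx2-1cKO samples of strain C57BL/6, with 1 sample on each 1-colour Agilent whole mouse genome array. By their labels the WT embryos carried Nkx2-1flox/+ without the Olig2tva-cre allele and the mutants carried Nkx2-1flox/+ with it, so that a floxed Nkx2-1 allele was common to both groups. The methods of the study instead name the strain Nkx2-1f/f for the mutant, crossed with Olig2-tva-Cre, a Cre made where Olig2 is transcribed, and with the AI14 Cre reporter. Cells that made no Cre, and whose ancestors made none, keep Nkx2-1. Whether embryos were pooled for a sample is not given in the sources used here. Without such a statement the p-values measure the spread between these samples only.

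The ganglionic eminences are the ventral swellings of the embryonic telencephalon that produce most GABAergic neurons of the forebrain. The MGE gives rise to pallidal neurons and to the Pvalb and Sst interneurons of the cortex. The CGE gives rise to most of the remaining cortical interneurons, which carry the ionotropic serotonin receptor Htr3a, and the lateral ganglionic eminence (LGE) to striatal projection neurons and olfactory bulb interneurons. COUP-TFI and COUP-TFII, encoded by Nr2f1 and Nr2f2, are orphan nuclear receptors, and COUP-TFII marks the CGE and the interneurons that leave it. Prox1 acts in the migration and maturation of CGE-derived interneurons, and Sp8 and Sp9 act in neurons of the dorsal LGE and CGE. Nr2e1 encodes TLX, a receptor that keeps neural progenitors dividing. Nkx2-1 is the homeobox gene that specifies the MGE, so the comparison asks whether genes typical of the neighbouring eminences were higher in the MGE when Nkx2-1 was removed. RNA of whole tissue was measured, so fewer cells of a type and less RNA per cell cannot be told apart.

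Upstream sequence is shown for Nr2e1 and Sp8, which had the largest increases among the 6 genes, and for Prox1, which had the smallest change. Each run is the 250 bases before a RefSeq transcription start in the build GRCm38.p6, written 5′ to 3′ on the gene's own strand. The windows are chr10:42583591-42583840 on the minus strand for Nr2e1, chr12:118846079-118846328 on the plus strand for the first of the Sp8 starts, and chr1:190170828-190171077 on the minus strand for the first of the Prox1 starts. Capitals mark every match, on either strand, to any of 5 motifs: AGGTCA (nuclear receptor half-site), AAGTCA (the half-site form of TLX), GGGCGG (GC box, bound by Sp proteins), TAATTA (homeodomain site) and CAAGTG (the core bound by NKX2 proteins).
Nr2e1: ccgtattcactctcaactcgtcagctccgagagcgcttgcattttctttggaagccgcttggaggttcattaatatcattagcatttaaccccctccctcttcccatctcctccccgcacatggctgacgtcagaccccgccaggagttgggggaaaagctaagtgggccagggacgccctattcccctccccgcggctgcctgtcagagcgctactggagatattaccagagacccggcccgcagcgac
Sp8: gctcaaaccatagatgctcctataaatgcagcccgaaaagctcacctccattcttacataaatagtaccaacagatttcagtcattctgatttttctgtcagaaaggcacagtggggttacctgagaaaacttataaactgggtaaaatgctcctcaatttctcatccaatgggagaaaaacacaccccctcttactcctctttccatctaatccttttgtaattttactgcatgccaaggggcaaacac
Prox1: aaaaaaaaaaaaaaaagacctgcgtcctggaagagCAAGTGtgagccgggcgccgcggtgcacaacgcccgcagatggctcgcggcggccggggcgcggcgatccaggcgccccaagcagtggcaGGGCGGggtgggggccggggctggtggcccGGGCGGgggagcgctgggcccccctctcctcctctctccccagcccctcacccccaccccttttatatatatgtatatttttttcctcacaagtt
None of the 5 motifs was matched in the window of Nr2e1 or of this Sp8 start. The Prox1 window held 1 match to CAAGTG and 2 to GGGCGG, none overlapping another. Among 32851 RefSeq windows of this length, 11.6% held CAAGTG, 32.7% GGGCGG, 14.0% AGGTCA, 13.1% AAGTCA and 4.84% TAATTA. Of the other starts, the second of Sp8 had 1 match each to AGGTCA and GGGCGG, the third of Sp8 1 each to CAAGTG and TAATTA, and the second of Prox1 1 each to AAGTCA and GGGCGG. The matches describe letters in these windows and were not tested for binding.

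Signal is given throughout as the log2 of the processed spot intensity relative to the 75th percentile of its array, so 0 is a spot as bright as that percentile. The 75th percentile lay between 2028 and 2574 intensity units. Per array 71.1% to 79.5% of the probes were well above background, and all 7 probes of the measured genes were so on all 8 arrays. The number of arrays limits the precision. Nkx2-1, the targeted gene, went from 1.87 ± 0.06 (WT) to -4.46 ± 0.19 (Nkx2-1cKO; SD, n = 4 each). Its signal in the mutant was 1.24% of that in WT. Of 12 tested markers of MGE-derived neurons, all were well above background on every WT array and 10 were lower in the mutant at an adjusted p under 0.05 (limma), with a list median of -2.12. The arrays lay on 2 slides, each with 2 WT and 2 Nkx2-1cKO samples. WT replicate 1 stood apart at low signal: over the 6246 dimmest tested probes it lay a median of 1.18 above the middle of the other 7 arrays, and the same measure was between -0.408 and 0.226 for each of those.

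No gene of the set passed the threshold over all 31283 tested probes (limma, Benjamini-Hochberg adjusted p under 0.05). By their brightest probes, Nr2f1, Nr2f6, Nr2e1 and Sp8 had higher means in the Nkx2-1cKO and Nr2f2 and Prox1 lower ones. The median log2 fold change of the 6 genes was 0.18. Over all genes with a symbol, by their brightest probes, it was -0.00206, and over all tested probes -0.04. In the same test 0.422% of all probes were higher and 0.614% lower. With slide as a block these shares were 0.668% and 0.844%, and again no gene of the set passed. Without adjustment, p was under 0.05 for 2 of the 6 genes, Nr2e1 and Sp8, and for 2698 of all tested probes. The plot of single arrays shows the 6 genes side by side.

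**Figure D1:**
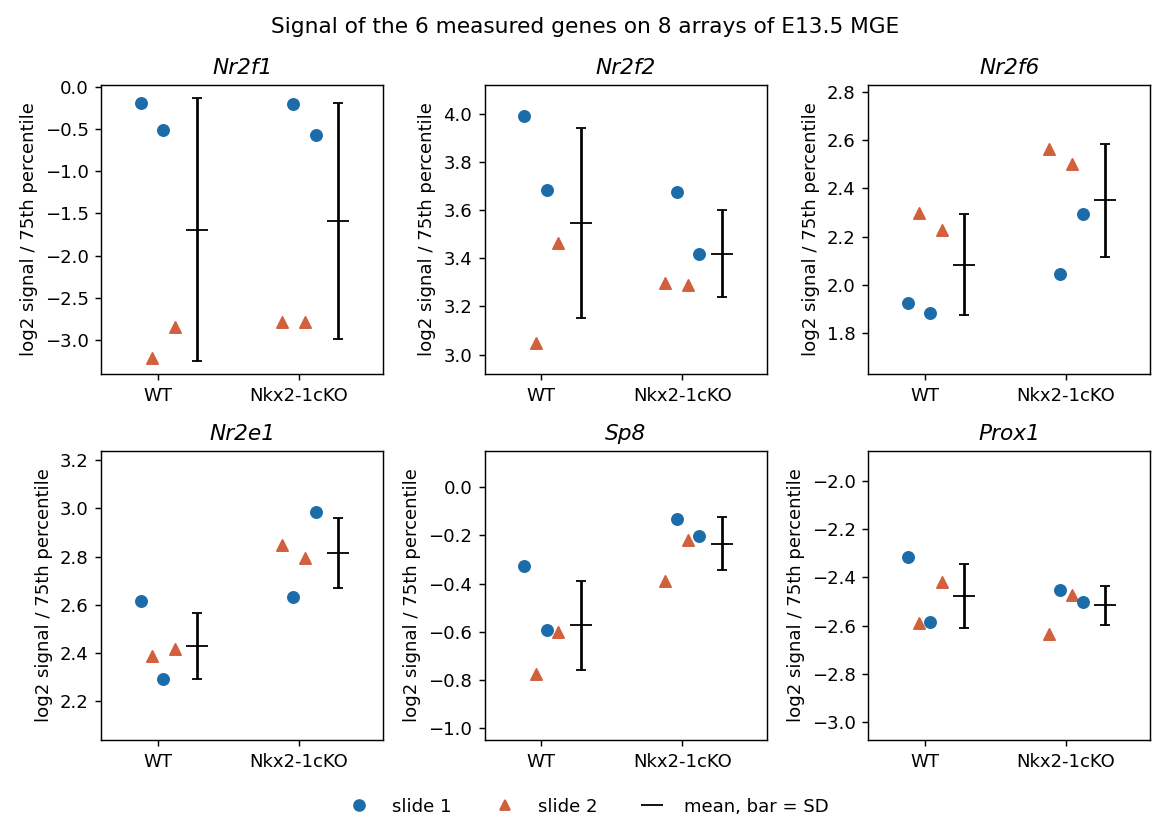
Log2 signal relative to the 75th percentile of the array (vertical axes, each panel with its own range) for the 6 measured genes in 4 WT and 4 Nkx2-1cKO arrays. Circles are arrays of slide 1 and triangles those of slide 2, and the bars show mean and SD of 4 arrays. The Nkx2-1cKO arrays of Nr2e1 lie above all WT arrays, while Nr2f1 separates by slide and not by genotype.

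Nr2e1 had the largest difference of the set. Its log2 signal (probe A_52_P47566) was 2.62, 2.39, 2.29 and 2.42 on WT arrays 1 to 4 and 2.85, 2.63, 2.79 and 2.98 on Nkx2-1cKO arrays 1 to 4. Every mutant array was above every WT array, but the highest WT array, replicate 1, and the lowest mutant array, replicate 2, were almost level at 2.617 and 2.631. The WT mean was 2.43 ± 0.14 and the Nkx2-1cKO mean 2.81 ± 0.15 (SD, n = 4 each). The log2 fold change was 0.39 (standard error 0.10, 95% interval 0.16 to 0.61), or 1.31-fold with an interval of 1.12 to 1.53. This was not past the threshold over all probes (limma, adjusted p = 0.176). The exact two-sided permutation test gave p = 0.0286, the smallest that 4 arrays against 4 allow. Among all probes without a missing value, 2.32% had every mutant array above every WT array and 4.13% had every mutant array below.

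The difference of Nr2e1 was 0.35 on slide 1 and 0.42 on slide 2. With slide as a block the adjusted p was 0.118 (limma). Without WT replicate 1 the log2 fold change was 0.45 (limma, adjusted p = 0.105). It passed the threshold with array weights, at 0.43 (limma, adjusted p = 0.0379), a setting in which 0.620% of all probes were higher. It also passed with slide as a block and arrays centred on their median, at 0.51 (limma, adjusted p = 0.0357), where 0.847% of all probes were higher. Relative to the median change of all probes, Nr2e1 was 0.43 higher in the main scaling. Median centring shifts all probes of an array alike, so it cannot alter this value.

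Sp8 encodes a zinc finger factor of the dorsal LGE and CGE. Its log2 signal (probe A_52_P467511) was -0.33, -0.77, -0.59 and -0.60 on WT arrays 1 to 4 and -0.39, -0.13, -0.22 and -0.20 on Nkx2-1cKO arrays 1 to 4. All mutant arrays were above WT replicates 2, 3 and 4. WT replicate 1, on slide 1, was above mutant replicate 1, on slide 2. The WT mean was -0.57 ± 0.18 and the Nkx2-1cKO mean -0.24 ± 0.11 (SD, n = 4 each). The log2 fold change was 0.34 (standard error 0.11, 95% interval 0.09 to 0.59), or 1.26-fold with an interval of 1.06 to 1.50. Over all probes it missed the threshold (limma, adjusted p = 0.373), and the exact two-sided permutation test gave p = 0.0571.

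Sp8 differed by 0.29 on slide 1 and by 0.38 on slide 2. Its adjusted p in the fit with slide was 0.136 (limma), and without WT replicate 1 the log2 fold change was 0.42 (limma, adjusted p = 0.148). With slide as a block and arrays centred on their median it was 0.46 and passed the threshold (limma, adjusted p = 0.038). Relative to the median change of all probes, Sp8 was 0.38 higher in the main scaling, a value that this centring cannot alter.

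Nr2f2, the COUP-TFII gene, was not detectably different between the groups. Its log2 signal (probe A_52_P620399) was 3.99, 3.05, 3.68 and 3.46 on WT arrays 1 to 4 and 3.30, 3.67, 3.29 and 3.42 on Nkx2-1cKO arrays 1 to 4. The mutant arrays lay inside the WT range. The log2 fold change was -0.13 (standard error 0.18, 95% interval -0.53 to 0.28; limma, adjusted p = 0.817), which as a fold is an interval of 0.690 to 1.21. It was -0.29 on slide 1 and 0.04 on slide 2. Its sign turned without WT replicate 1, to 0.02, and without WT replicate 2 it was -0.29. The interval in the fit with slide was -0.40 to 0.15, or 0.756-fold to 1.11-fold.

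Nr2f1, the COUP-TFI gene, divided by slide. Its log2 signal (probe A_52_P275700) was -0.19 and -0.51 in WT replicates 1 and 3 and -0.20 and -0.57 in Nkx2-1cKO replicates 2 and 4, all on slide 1. On slide 2 it was -3.22 and -2.85 in WT replicates 2 and 4 and -2.79 and -2.79 in Nkx2-1cKO replicates 1 and 3. No array of one slide came near the range of the other. The genotypes interleaved on slide 1, while on slide 2 both mutant arrays were above both WT arrays, the nearest at -2.79 and -2.85. The same gap was present before scaling, with a processed intensity of 1592 to 2261 units on slide 1 and of 259 to 343 units on slide 2. The local background of these spots was between 20.5 and 26 units.

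The mean of Nr2f1 was 2.54 lower on slide 2 than on slide 1 on the log2 scale (standard error 0.13; limma with genotype in the fit, adjusted p = 7.36e-06), a 5.83-fold difference. It ranked 114 of 31283 by the size of the slide difference, and 14.3% of all probes differed between the slides at an adjusted p under 0.05. The slide difference was -2.47 after quantile normalization and -1.88 after normexp background correction. Scan time went with slide, so the pair cannot be told apart. What sets this probe apart was not tested.

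Because of this gap the genotype comparison of Nr2f1 depended on the fit. The log2 fold change was 0.10 with and without slide in the fit, but the 95% interval was -1.76 to 1.96 without slide, or 0.295-fold to 3.90-fold (limma, adjusted p = 0.974). With slide as a block it was -0.20 to 0.40, or 0.871-fold to 1.32-fold (limma, adjusted p = 0.697). The genotype difference was -0.04 on slide 1 and 0.24 on slide 2. Normexp background correction gave a log2 fold change of 0.40 and array weights one of 0.83, the latter outside the interval of the fit with slide. The median change of the MGE markers lies outside both intervals, whereas the change of Nr2e1 lies inside both.

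**Figure D2:**
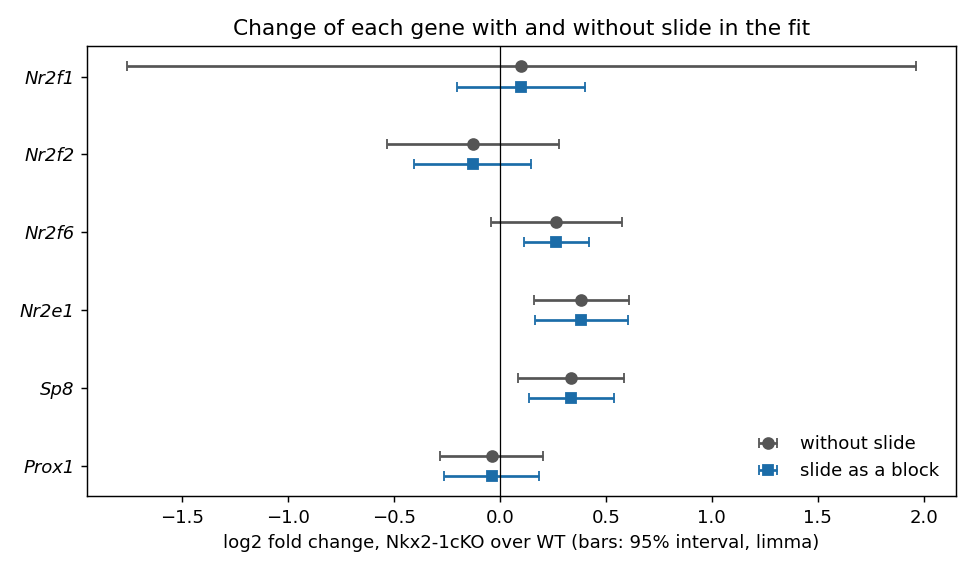
Log2 fold change of the 6 measured genes, Nkx2-1cKO over WT (horizontal axis), with 95% intervals from limma without slide (grey circles) and with slide as a block (blue squares). The interval of Nr2f1 runs from -1.76 to 1.96 without slide and from -0.20 to 0.40 with it, and those of Nr2e1 and Sp8 lie above 0 in both fits.

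**Figure D3:**
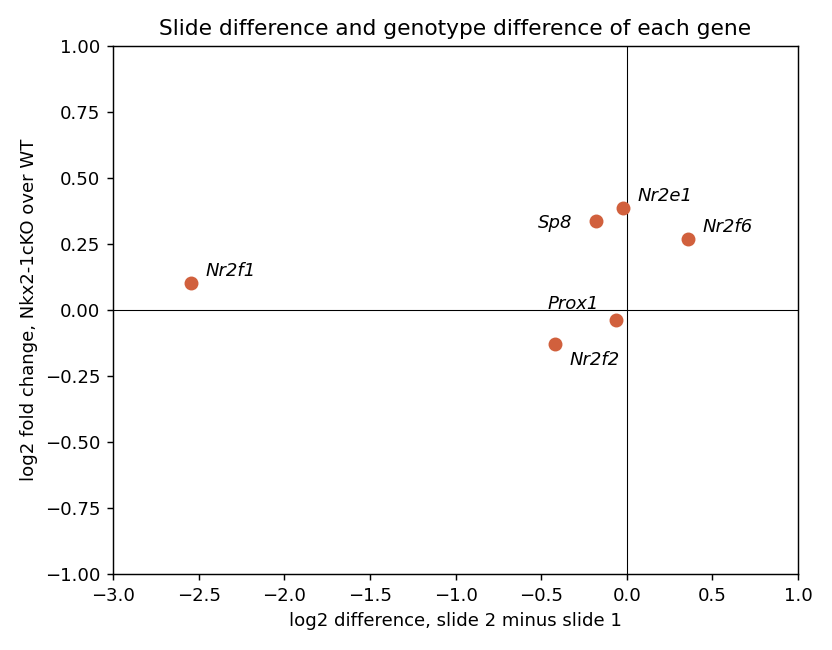
Difference between the slides (horizontal axis, log2, slide 2 minus slide 1) against the genotype difference (vertical axis, log2, Nkx2-1cKO minus WT) for the 6 measured genes, 1 point per gene. Nr2f1 lies far to the left at -2.54, and the other genes lie between -0.42 and 0.36.

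The slide differences of the other genes were smaller. Nr2f6 was 0.36 higher on slide 2 (limma, adjusted p = 0.0107), and Nr2f2 was 0.42 lower there (limma, adjusted p = 0.0532). For Sp8, Nr2e1 and Prox1 they were -0.18, -0.02 and -0.07. The COUP-TF paralogs Nr2f2 and Nr2f1 were also compared by the difference between their genotype changes, which was -0.23 (p = 0.514 in an exact two-sided permutation test). Slide 1 gave -0.25 and slide 2 gave -0.20. Permuting within slides gave p = 0.0556, the smallest that this exact test allows.

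Nr2f6 encodes EAR2, the third COUP-TF receptor. Its log2 signal (probe A_51_P184353) was 1.93, 2.30, 1.88 and 2.23 on WT arrays 1 to 4 and 2.56, 2.04, 2.50 and 2.29 on Nkx2-1cKO arrays 1 to 4. The groups overlapped over all arrays. On each slide both mutant arrays were above both WT arrays, which also held for Nr2e1 and Sp8. The share of all probes with such a split was not counted, so no weight can be given to it. The log2 fold change was 0.27 (standard error 0.14, 95% interval -0.04 to 0.58; limma, adjusted p = 0.623), and it was 0.27 on either slide. With slide as a block the interval was 0.11 to 0.42, or 1.08-fold to 1.34-fold, and the threshold over all probes was still not passed (limma, adjusted p = 0.126).

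Prox1 was measured by 2 probes. The brighter one (A_51_P369056) had a log2 signal of -2.32, -2.59, -2.59 and -2.42 on WT arrays 1 to 4 and -2.63, -2.45, -2.47 and -2.50 on Nkx2-1cKO arrays 1 to 4. The groups overlapped almost wholly. Its log2 fold change was -0.04 (standard error 0.11, 95% interval -0.28 to 0.20; limma, adjusted p = 0.916), or 0.823-fold to 1.15-fold. The other probe (A_51_P369058) changed by -0.21 (standard error 0.17; limma, adjusted p = 0.70), with arrays between -3.50 and -2.66 in WT and between -3.39 and -3.13 in the Nkx2-1cKO. The sign of the brighter probe depended on the scaling, with values of 0.02 after quantile normalization, 0.08 when arrays were centred on their median and 0.30 after normexp background correction.

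Scaling also moved the probes as a whole. Over all tested probes the median difference between the groups, in log2, was -0.04 in the main scaling, 0.08 with arrays centred on their median, 0.01 after quantile normalization and 0.20 after normexp background correction. Relative to that median, Nr2e1 was 0.43 higher in the main scaling, 0.33 higher after quantile normalization and 0.08 higher after normexp. Sp8 was 0.38, 0.32 and 0.16 higher in these settings. Nr2f6 was 0.31 and 0.21 higher in the first pair of settings, and after normexp it was level with the median, at -0.01. Centring arrays on their median shifts all probes of an array alike. It therefore had to return the values of the main scaling, 0.43 for Nr2e1, 0.38 for Sp8 and 0.31 for Nr2f6.

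Genes with an array profile like those of Nr2e1 and Sp8 were sought by the root mean square distance between centred log2 profiles over the 8 arrays. Nearest to Nr2e1 were Impa2 (inositol monophosphatase), Erf (an ETS repressor) and Pea15a (a phosphoprotein that binds ERK), at distances of 0.059, 0.0713 and 0.0753. Their log2 fold changes were 0.32, 0.44 and 0.36. Nearest to Sp8 were Rnd3, Dclk3 (a doublecortin-like kinase) and Cd47 (an integrin-associated membrane protein), at distances of 0.0891, 0.097 and 0.0975. Their log2 fold changes were 0.26, 0.23 and 0.37. The genes were chosen for their likeness, so the values are a description.

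The relatives of the 6 genes were read from lists of their families and partners. Of 7 tested NR2 genes outside the set, none passed the threshold, 3 had higher and 4 lower means, and their median was -0.0035, against -0.00206 over all genes with a symbol. Rxrg, a retinoid X receptor gene, had the largest difference among them. Its log2 signal was 0.29, 1.52, 1.55 and 1.23 on WT arrays 1 to 4 and 2.02, 2.15, 2.19 and 2.21 on Nkx2-1cKO arrays 1 to 4, so that all mutant arrays were above all WT arrays. The log2 fold change was 0.99 (standard error 0.24; limma, adjusted p = 0.143). WT replicate 1 was the lowest array here. Hnf4g, a nuclear receptor gene of gut and kidney, came next at -0.21 (limma, adjusted p = 0.836).

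Of the 6 tested Sp genes other than Sp8 and Sp9, none passed either, and their median was -0.03. Sp3, a broadly transcribed family member, was lower on all mutant arrays than on any WT array (log2 fold change -0.32, standard error 0.09; limma, adjusted p = 0.235). Sp5, a target of Wnt signalling, was next at 0.18 (limma, adjusted p = 0.782). Of 12 tested cofactors of COUP-TF and TLX, such as Bcl11a, Bcl11b and the NCoR and LSD1 complexes, none passed, with a median of 0.03. The extremes were Zfpm2, the FOG2 gene, at -0.39 (limma, adjusted p = 0.486) and Atn1, encoding atrophin, at 0.20 (limma, adjusted p = 0.635).

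Htr3a was not analysed, and 10 other genes of serotonin receptors and the transporter were tested. None passed the threshold, 8 of the 10 had lower means in the mutant, and the median was -0.31. Htr7, a receptor coupled to cyclic AMP, had a log2 fold change of -1.05 (standard error 0.36; limma, adjusted p = 0.40), and Htr1a, an inhibitory receptor, one of -0.64 (standard error 0.22; limma, adjusted p = 0.391). Most of these probes were dim, with the mean of the list between -5.76 and -5.11 on the WT arrays and between -6.09 and -5.70 on the mutant arrays. The part of the raised dim signal of WT replicate 1 in this shift was not tested.

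Among 17 other tested genes of the CGE and dorsal LGE, 3 passed the threshold and all 3 fell. Etv1, an ETS factor found in several eminences, had a log2 signal of 1.70, 1.998, 1.90 and 1.87 on WT arrays 1 to 4 and of 0.44, 0.28, 0.36 and 0.34 on Nkx2-1cKO arrays 1 to 4. It fell by 1.51 on the log2 scale (standard error 0.09; limma, adjusted p = 2.92e-05). Scgn, encoding the calcium sensor secretagogin, went from -3.69 ± 0.19 to -5.59 ± 0.31 (SD, n = 4 each) and fell by 1.90 (standard error 0.20; limma, adjusted p = 0.00178). Adarb2, an RNA editing family gene that marks CGE-derived interneurons, went from -1.998 ± 0.14 to -2.98 ± 0.13 (SD, n = 4 each) and fell by 0.98 (standard error 0.12; limma, adjusted p = 0.00336). For these 3 genes no mutant array reached the WT range.

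The other 14 genes of this list did not pass, 6 with higher and 8 with lower means. Npas1, Gsx2 and Tshz2 had the largest increases, at 0.48, 0.42 and 0.38 (limma, adjusted p = 0.227, 0.412 and 0.374). Npas1 is a bHLH-PAS factor of interneurons, Gsx2 a homeobox factor of LGE progenitors and Tshz2 a teashirt zinc finger factor. Among the lower ones were Egfr, a growth factor receptor gene, at -0.78 (limma, adjusted p = 0.327), and Nrp2, a semaphorin receptor gene, at -0.39 with all mutant arrays below all WT arrays (limma, adjusted p = 0.119). Tshz2 was past the threshold with slide as a block (limma, adjusted p = 0.0436). The median of the list was -0.09.

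In comparison, 6 of the 11 tested genes of striatal neurons of the LGE were higher in the mutant past the threshold, with a median of 0.75. They were Isl1, Ebf1, Foxp2, Zfp503, Six3 and Rarb, transcription factors of the striatum with log2 fold changes between 0.60 and 1.51. Foxp2 had 2 tested probes, of which 1, the brighter, passed (limma, adjusted p = 0.0438). The difference between this list and the CGE factors was not tested. None of 10 ventricular zone and 8 pallial genes passed. The mean of the pallial list was between 0.34 and 0.83 on the WT arrays and between 0.26 and 0.75 on the mutant arrays. The part of pallial cells in the values of the CGE factors was not tested.

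**Figure D4:**
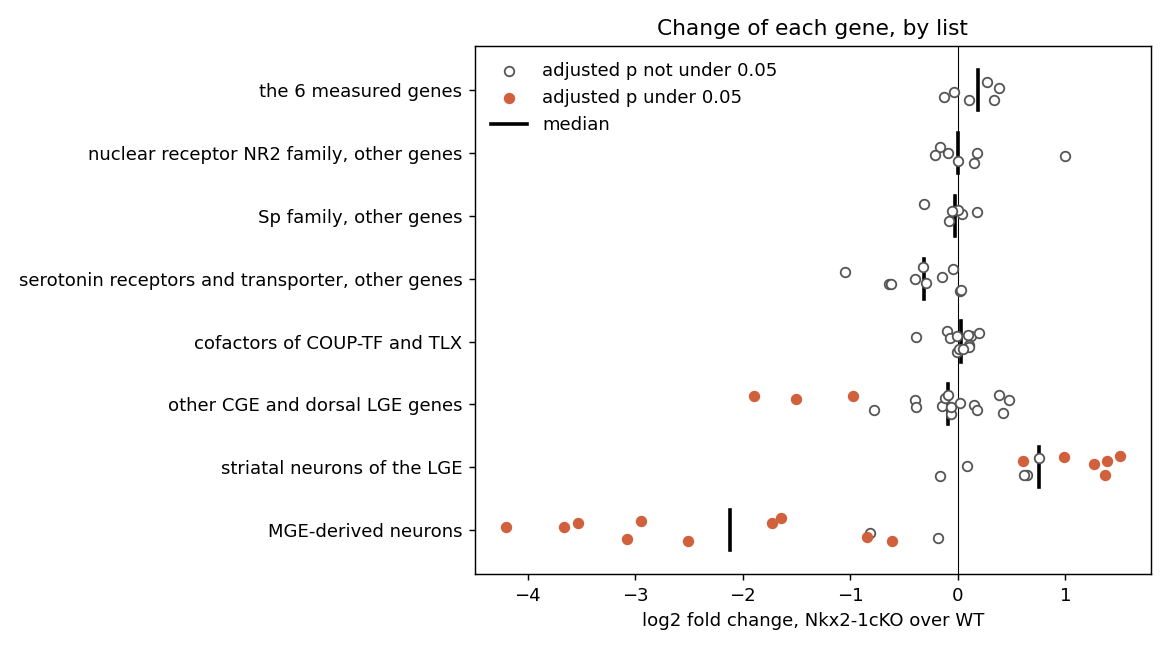
Log2 fold change, Nkx2-1cKO over WT (horizontal axis), for each tested gene of 8 lists, 1 point per gene with small vertical offsets for legibility. Filled points have an adjusted p under 0.05 (limma), open points do not, and the vertical bars are list medians. The 6 measured genes lie between -0.13 and 0.39, and the filled points among the other CGE and dorsal LGE genes are Etv1, Scgn and Adarb2.

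Markers of cells that could have been carried along in the dissection were read in the same way. None of 8 endothelial, 8 blood and microglial and 4 choroid plexus genes passed the threshold. Of 6 diencephalic genes, 1 was higher, Tcf7l2, a Wnt effector of the thalamus, at 0.99. Of 8 mesenchymal genes, 1 was lower, Pdgfra, also a gene of oligodendrocyte precursors, at -1.76. The mean of the mesenchymal list was between -3.63 and -0.89 on the WT arrays and between -4.11 and -2.73 on the mutant arrays. The highest was that of WT replicate 4. There Col3a1, a collagen gene of the list, was at 1.26, against -1.61 to -1.17 on the other WT arrays. Of the same list, Pdgfra and Twist1 were highest in WT replicate 1. The part of mesenchymal cells in the values of the 6 genes was not tested.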

How the data were processed

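RNA from E13.5 MGE of 4 WT and 4 Nkx2-1cKO samples was amplified, labelled with Cy3 and hybridised to 1-colour Agilent arrays. The authors deposited spot intensity values from Agilent Feature Extraction (version 10.7.3.1 per the file headers, 10.1 per the submitters' processing notes), background-subtracted within each array and not scaled between arrays. The steps after it are not given in the sources used here.

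Spots that were controls or had an outlier mark were dropped, the log2 of the processed intensity was taken relative to the array's 75th percentile, and spots of a probe were averaged. Accessions of 24844 of 41174 probes matched symbols in a RefSeq table of GRCm38.p6. The 31283 probes (53 missing values) that were well above background on 4 or more of 8 arrays were fitted with lmFit and eBayes with a variance trend (limma 3.58.1, R 4.3.3), adjusted by Benjamini-Hochberg over all of them with a threshold of 0.05. The brightest tested probe represents a gene. Scripts in Python 3.11.15 with pandas 2.3.3 and matplotlib 3.10.9 read the files and drew the plots. Single values were compared by exact two-sided permutation tests.

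Groups follow the sample titles. Slides were read from the barcode of each array. Same-numbered replicates lay on different slides and their deviations correlated between -0.481 and -0.194, so numbers do not pair samples. The members and gene lists were chosen with earlier results of these data known. Genes named are all members, Nkx2-1, the genes past the threshold in each list of family, partner or CGE and dorsal LGE genes or, where none passed, the 2 with the largest change, and the 3 nearest profiles of Nr2e1 and Sp8, the 2 genes with the largest absolute change. Npas1, Gsx2, Tshz2, Egfr, Nrp2 and the cell type markers named lie outside this rule and were chosen after their values were seen. The alternatives were quantile normalization, median centring, normexp (offset 50, on the median signal), other filters, array weights, no variance trend, other probes, slide or replicate number as a block, each slide alone and each array left out. Slide as a block combined with each other scaling was chosen after seeing the data. Mean and SD are over 4 arrays. A list of genes of the subpallial telencephalon is not reported here.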

Additional observations from a re-analysis of the deposited data

Results flagged for a closer look

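Of 34 sets of 4 arrays, 1 had an array set far apart, and about 1.7 would by chance. It was the WT set of Impa2, the gene whose array profile was nearest to that of Nr2e1: WT replicate 1 was at -0.49, and the remaining WT arrays ranged from -0.79 to -0.75. The gap was 0.852 of the range of the group. This replicate was also the highest WT array for Nr2f1, Nr2f2, Nr2e1, Sp8 and both probes of Prox1, and not for Nr2f6. The cause was not tested.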

How the results depend on the processing

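No gene of the set was lower past the threshold under any of the 23 alternatives run. The number higher was 1 with array weights (Nr2e1, 0.43, adjusted p = 0.0379, limma) and 2 with slide as a block and median centring (Nr2e1, 0.51, adjusted p = 0.0357; Sp8, 0.46, adjusted p = 0.038, limma), and 0 in the other 21. The adjusted p reached 0.847 for Nr2e1 and 0.851 for Sp8. Over all alternatives the log2 fold change stayed between 0.28 and 0.51 for Nr2e1, 0.27 and 0.46 for Sp8 and 0.18 and 0.39 for Nr2f6, whose side of the threshold did not change. Signs turned for Nr2f1 (-0.0368 on slide 1 alone, while normexp gave 0.40 and array weights 0.83), for Nr2f2 (0.0707 with array weights, 0.0356 on slide 2 alone) and for Prox1 (0.0213 after quantile normalization, 0.0823 with median centring, 0.303 after normexp, each also with slide as a block, and 0.0063 with array weights). With 1 array left out the ranges were -0.41 to 0.60 for Nr2f1, -0.29 to 0.0204 for Nr2f2, -0.075 to 0.0157 for Prox1, 0.33 to 0.45 for Nr2e1, 0.27 to 0.42 for Sp8 and 0.20 to 0.37 for Nr2f6, and the Nr2f2 to Nr2f1 difference lay between -0.59 and 0.15. For Nr2f1, leaving out 1 array makes the slides unequal between the groups. The cause was not tested for the rest.

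With the replicate number as a replicate block, Nr2e1 was at 0.39 (adjusted p = 0.494) and Sp8 at 0.34 (adjusted p = 0.851, limma), and no call among the 6 genes changed. It gave 8 higher and 64 lower probes in all, against 132 and 192 without it. The numbers do not pair the arrays. Of all probes, 63 were higher and 90 lower after normexp, 115 lower with median centring, 209 higher with slide as a block, 87 higher without a variance trend and 291 lower with array weights. On slide 1 alone 4 were higher and 25 lower, and on slide 2 alone 20 and 66. With 1 array left out, 65 to 118 were higher and 130 to 174 lower. The planned difference between Sp9 and Sp8 was not run, because Sp9 was not analysed here.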
